A study of Mus musculus with 208 samples.

Results

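The RNA of 7 genes that mark astrocytes was followed in neuronal nuclei of the mouse brain. The genes were Aldh1l1, Aqp4, Gja1, Slc1a2, Slc1a3, Gfap and Sox9, taken by their symbols from the 46403 genes of each count table, and all 7 had a row in all tables. Wild type C57BL/6NTac mice of both sexes were exposed to morphine or saline around birth. Dams carried a minipump giving 10 mg/kg of morphine a day, and pups raised by drug-naive surrogates were injected with 10 mg/kg 2 times a day until postnatal day 14. In adulthood the mice received lipopolysaccharide (LPS, a bacterial cell wall component that provokes an acute immune response) or saline, and brain tissue was taken 2 h later. The 4 conditions are named by exposure and then challenge (SAL–SAL and SAL–LPS after saline, MOR–SAL and MOR–LPS after morphine). Nuclei carrying NeuN, the neuronal protein encoded by Rbfox3, were sorted from hypothalamus, hippocampus, prefrontal cortex (PFC) and striatum, and 1 nuclear RNA library was made per animal and region. The libraries came from 71 animals of 18 litters, the litter being the first number of the animal label in the study's naming of animals. Hypothalamus had 11 libraries of SAL–SAL, 14 of MOR–SAL, 12 of SAL–LPS and 14 of MOR–LPS, and in the same order of conditions, used for all lists of 4 values below, hippocampus had 13, 12, 14 and 16, PFC 10, 12, 10 and 16, and striatum 13, 8, 15 and 18. No litter held both exposures (8 litters had saline and 10 morphine). Exposure was thus compared only between litters, and litter could not be a block in those contrasts. In 17 of the 18 litters the animals used were of 1 sex, so that litter and sex are largely joined.

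Astrocytes are glial cells that take up glutamate and potassium released by neurons, share ions and metabolites through gap junctions, regulate water at blood vessels, and enlarge and change their gene expression when the brain is inflamed or injured. Slc1a2 and Slc1a3 encode the glutamate transporters GLT-1 and GLAST, Aqp4 encodes the water channel of astrocyte endfeet, Gja1 encodes the gap junction protein connexin 43, and Aldh1l1 encodes a folate enzyme used to label astrocytes. Gfap encodes the intermediate filament that accumulates in reactive astrocytes, and Sox9 encodes a transcription factor that astrocytes keep into adulthood. Slc1a2 is also transcribed at a low level in some neurons. A sort for NeuN is meant to leave astrocytes out.

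In the GENCODE annotation of mm10, Slc1a2 spans chr2:102658659-102790784 on the plus strand, Slc1a3 chr15:8634124-8710764 on the minus strand, Gja1 chr10:56377330-56402513 on the plus strand, Aldh1l1 chr6:90486427-90600203 on the plus strand, Sox9 chr11:112782224-112787760 on the plus strand and Gfap chr11:102887336-102900912 on the minus strand. RefSeq promoter sequence (GRCm38.p6) was at hand for 5 of the 7 members. The 300 bases of each entry (250 before to 50 after the start) were searched on both strands for TTCNNNGAA, the palindrome bound by STAT factors, which carry cytokine signals to the nucleus. The promoters of Gfap and Slc1a3 are shown because they held this motif, while those of Aldh1l1, Gja1 and Slc1a2 did not. Each is printed from 250 bases before to 10 bases after the transcription start, chr11:102897191-102897450 on the minus strand for Gfap and chr15:8710798-8711057 on the minus strand for Slc1a3, with the motif in capitals.
Gfap: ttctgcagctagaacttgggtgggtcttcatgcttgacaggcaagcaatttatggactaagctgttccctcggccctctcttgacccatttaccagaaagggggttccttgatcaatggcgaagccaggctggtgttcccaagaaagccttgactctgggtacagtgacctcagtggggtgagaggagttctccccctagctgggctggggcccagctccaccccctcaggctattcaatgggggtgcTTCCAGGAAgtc
Slc1a3: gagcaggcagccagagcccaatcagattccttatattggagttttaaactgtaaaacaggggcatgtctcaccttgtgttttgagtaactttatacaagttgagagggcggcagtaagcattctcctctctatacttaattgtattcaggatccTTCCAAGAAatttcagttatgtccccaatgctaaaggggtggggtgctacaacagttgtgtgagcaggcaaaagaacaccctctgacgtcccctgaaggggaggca
The match covered positions -2 to 7 from the start in Gfap and -96 to -88 in Slc1a3. Of 32851 promoters of 300 bases, 8.3% held the motif. The other motifs searched were TGANTCA of AP-1, found in Gja1 at -19 to -13 and in 7.81% of all promoters, ACAANG of SOX factors, found in Slc1a3 at -179 to -174 on the reverse strand and in 41.2%, and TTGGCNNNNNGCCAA of NFI factors, found in no member and in 0.0365%.

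The sort was checked against defining markers. Rbfox3 and the synaptic gene Snap25 were above 0 in every library, with regional medians of 140.7 to 2132 and 695.5 to 904 CPM (counts scaled to a common library total). The endothelial genes Cldn5 and Flt1 had medians of 0 to 0.403 CPM, Ttr of choroid plexus 0.163 to 2.94, Rax of tanycytes 0, and Cx3cr1 of microglia 4.94 to 5.92. Summed over the whole lists the regional medians were 18.9 to 28.2 CPM for 6 endothelial genes, 11.7 to 35.3 for 5 choroid plexus genes, 15.8 to 138.1 for 7 ependymal and tanycyte genes and 24.2 to 36 for 9 microglial genes. The oligodendrocyte gene Mbp had medians of 103.6 to 184.4 CPM and reached 1790 CPM in a striatal library. The 8 genes of its list had summed regional medians of 341 to 398.4 CPM, the highest of the lists named so far, and a highest of 6902 in hypothalamus. A list of 32 other astrocyte genes had summed regional medians of 646.4 to 1323 CPM, above the oligodendrocyte list in every region. Total counts ran from 7673 to 35077048 in hypothalamus, 227025 to 24071488 in hippocampus, 3056648 to 21988203 in PFC and 5954700 to 92945090 in striatum, and 8 libraries held under 0.5 of their region's median.

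The tables of the 4 regions did not count the same genes. Gfap was listed at 0 in all 157 libraries of hippocampus, PFC and striatum. It lies wholly inside the span of Gm26668 (chr11:102863337-103075903) on the other strand. Of 13497 genes with at least 1000 counts in hypothalamus, 1604 lay inside another gene, and 95.89% of these were listed at 0 in all libraries of the other 3 regions, against 0.4877% of the 11893 that did not. The abundant neuronal gene Tubb3 (hypothalamic median 204.6 CPM) and Nefl (72.3 CPM) were among those listed at 0, as were Sox2 and the astrocyte genes Htra1 and Lcat. A Gfap value of 0 outside hypothalamus is therefore no measurement of Gfap RNA. Across 11108 genes, the ratio of a region to hypothalamus also followed the ratio of gene span to exon length, with a Spearman correlation of 0.617 for hippocampus, 0.494 for PFC and 0.727 for striatum (a description across genes that share libraries). Hypothalamic levels are accordingly compared with those of the other regions only with this limit, while contrasts within a region are between libraries of 1 table. The members other than Gfap are not inside another gene, but only 68.09% of the span of Aldh1l1 and 63.25% of that of Aqp4 is free of other annotated genes. Reads from the rest may be left uncounted for them outside hypothalamus, as for Gfap, which was not tested.

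**Figure D1:**
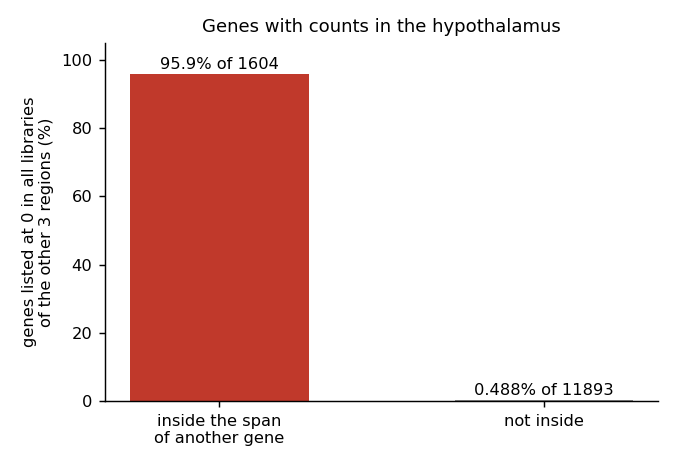
Percent of genes with at least 1000 counts in hypothalamus that were listed at 0 in all 157 libraries of hippocampus, PFC and striatum, for 1604 genes lying wholly inside the span of another gene and 11893 genes that did not. Gfap belongs to the left bar, where 95.89% were listed at 0, and the other 6 members to the right bar, where 0.4877% were.

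In hypothalamus Slc1a2 was the most abundant member. Its median over 51 libraries was 170.6 CPM (after TMM scaling, as are all CPM below), or 12.99 CPM per kb of exon, against 1.76 per kb for Slc1a3 and 0.495 to 0.645 per kb for the other 5, whose medians lay close together. Counted per kb of gene span not shared with another gene, Slc1a2 also led in hippocampus (2.55), PFC (2.66) and striatum (1.8), with Sox9 next in hippocampus (0.47) and PFC (0.493) and Slc1a3 next in striatum (0.255).

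In hypothalamus most members had more RNA in MOR–LPS than in MOR–SAL, and no member was called between SAL–LPS and SAL–SAL. A gene was called at an adjusted p (Benjamini–Hochberg over all genes tested) under 0.05 in edgeR's quasi-likelihood test with sex as a covariate. In MOR–LPS against MOR–SAL, 5 of the 7 members rose (Gfap, Slc1a2, Aldh1l1, Slc1a3 and Gja1) and all 7 had a fold change above 1, where 6.27% of 28859 genes were called. After a stricter filter on low counts (filterByExpr) 5 members were called against 3.64% of genes, DESeq2 called 5 and limma 2. The median log2 fold change was 2.36 over the members and 0.0028 over all genes. In bulk material of this kind, more nuclei of a cell type and more RNA per nucleus cannot be told apart.

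Of the glutamate transporters, Slc1a2 ran from 62.4 to 185.2 CPM with a median of 87.6 in MOR–SAL, and from 86.3 to 860.8 with a median of 314.3 in MOR–LPS. In SAL–SAL it ran from 25.3 to 479.8 (median 203.7), and in SAL–LPS from 0 to 267 (median 175.7). The MOR–SAL libraries had the lowest median and the narrowest range, and 10 of the 14 MOR–LPS libraries lay above all of them. Slc1a2 rose 3.89-fold after morphine and LPS (log2 1.958 ± 0.264 SE, edgeR adjusted p = 8.32e-06), and had a log2 value of -0.54 ± 0.29 in SAL–LPS against SAL–SAL (adjusted p = 0.403). Slc1a3 ran from 5.04 to 28.8 CPM (median 14.2) in MOR–SAL and from 6.66 to 395 (median 70.6) in MOR–LPS, with 11 of 14 libraries above the highest of MOR–SAL. Its medians in SAL–SAL and SAL–LPS were 11 and 14.4 CPM, with highest values of 188.4 and 204.5. Slc1a3 rose 5.15-fold (log2 2.36 ± 0.52, adjusted p = 0.0048).

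Of the membrane channel genes, Gja1 rose and Aqp4 was not called. Gja1 had medians of 5.03, 4.54, 5.51 and 24.6 CPM in the 4 conditions, and ran from 1.12 to 8.14 in MOR–SAL and from 0.13 to 161.5 in MOR–LPS, where 10 of 14 libraries exceeded the highest of MOR–SAL. Its fold change was 5.67 (log2 2.50 ± 0.58, adjusted p = 0.00682), and its call was lost with litter as a block (log2 1.961, adjusted p = 0.0819) and with the oligodendrocyte sum as a covariate (1.299, adjusted p = 0.164). Aqp4 had medians of 1.83, 4.5, 3 and 14.7 CPM and 9 of 14 MOR–LPS libraries above the highest of MOR–SAL (10.1). Its log2 value of 1.63 ± 0.60 was not called (adjusted p = 0.0865, unadjusted p = 0.0088).

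Aldh1l1 had medians of 2.7, 1.71, 3.59 and 13.9 CPM. It ran from 0.104 to 8.06 CPM in MOR–SAL and from 0 to 64.9 in MOR–LPS, where 7 of 14 libraries lay above the highest of MOR–SAL and the others within its range or at 0. It rose 8.07-fold (log2 3.01 ± 0.63, adjusted p = 0.00267), a call lost with the oligodendrocyte sum as a covariate (1.52, adjusted p = 0.0736). Sox9, the transcription factor, had medians of 1.59, 2.04, 2.47 and 7.3 CPM, and its log2 value of 1.73 ± 0.73 was not called (adjusted p = 0.142, unadjusted p = 0.021).

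Gfap was the only member whose MOR–SAL and MOR–LPS libraries did not overlap. The share of all genes that separate in this way was not counted. It was at 0 in 8 of 14 MOR–SAL libraries and reached 2.5 CPM there, while the 14 MOR–LPS libraries ran from 4.34 to 47.7 CPM with a median of 13.5. It was at 0 in 7 of 11 SAL–SAL libraries (highest 8.39), and in 1 of 12 SAL–LPS libraries, which had a median of 2.56 and a highest value of 35.5. The library at 0 in SAL–LPS was the one with 7673 counts in all, in which all 7 members were at 0. Gfap rose by 5.21 ± 0.74 on the log2 scale after morphine and LPS (adjusted p = 1.36e-05), and this fitted fold depends on how the libraries at 0 are treated. In SAL–LPS against SAL–SAL its log2 value was 2.03 ± 0.75 (unadjusted p = 0.0086, adjusted p = 0.159). As a share of the summed members, Gfap had medians of 0% in SAL–SAL, 0% in MOR–SAL, 1.48% in SAL–LPS and 3.15% in MOR–LPS.

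**Figure D2:**
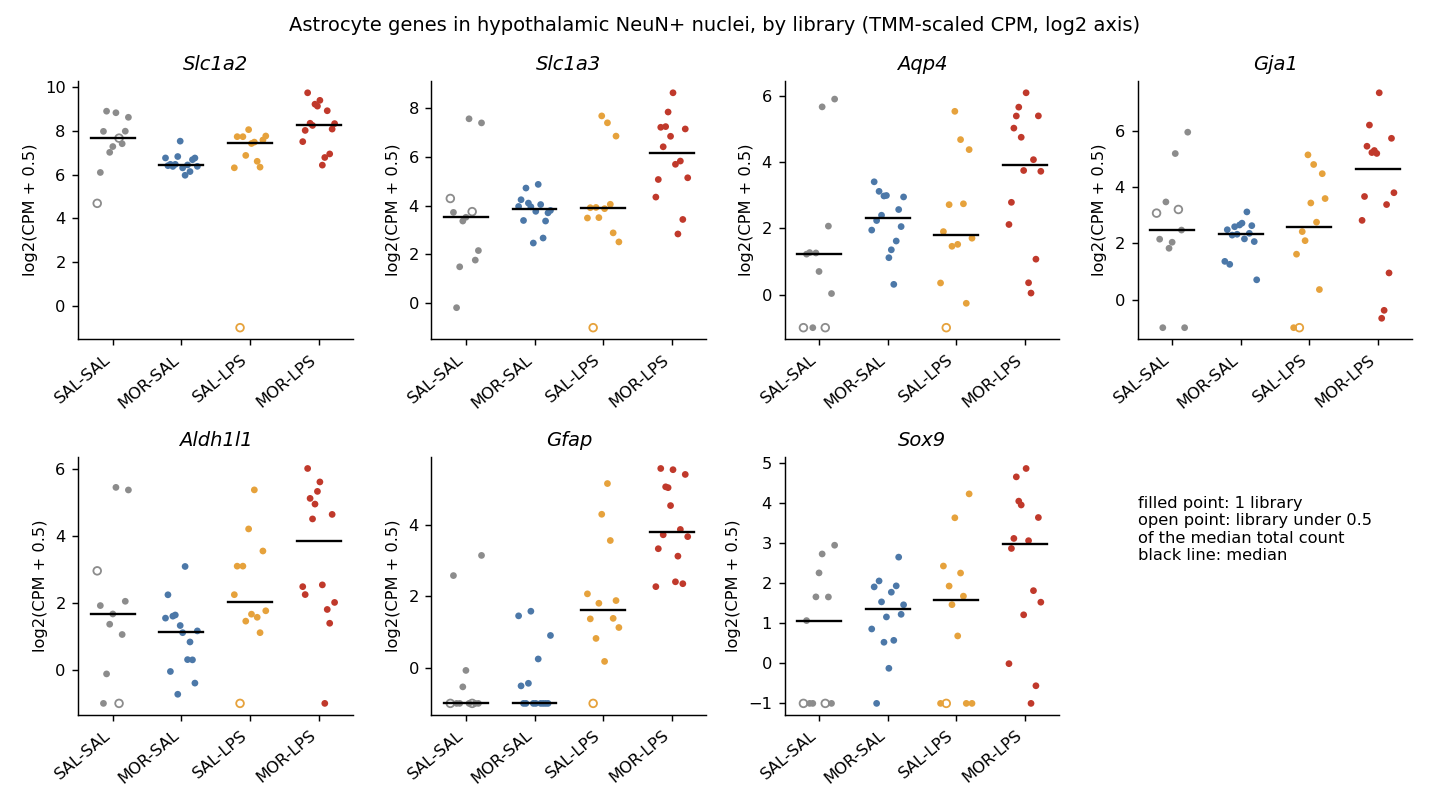
Level of each member in the 51 hypothalamic libraries, as log2(CPM + 0.5) after TMM scaling, by condition. Each point is 1 library, open points are libraries under 0.5 of the median total count and the black line is the median. All 14 MOR–LPS points of Gfap lie above the highest MOR–SAL point (2.5 CPM), while the 2 groups overlap for the other 6 genes.

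In SAL–LPS against SAL–SAL, edgeR called 0 of the 7 members (0.246% of genes were called), as did the fit after filterByExpr, DESeq2 and limma, with 1 member at an unadjusted p under 0.05 (Gfap). Log2 values ran from -0.54 (Slc1a2) to 2.03 (Gfap), and 3 of 7 were above 0. The interaction term, which tests the difference between the responses after morphine and after saline, was positive for all 7 and was called for Slc1a2 (log2 2.50 ± 0.39, adjusted p = 0.000469), Aldh1l1 (3.16 ± 0.89, adjusted p = 0.0293) and Gja1 (2.75 ± 0.84, adjusted p = 0.0455), where 3.8% of genes were called. Leaving out 1 litter at a time ended the call of Slc1a2 in 0, of Aldh1l1 in 5 and of Gja1 in 10 of 17 refits. The interaction was also called for 8 of 31 other astrocyte genes, among them Ndrg2 (1.70) and Acsbg1 (3.18), and for 5 of 8 oligodendrocyte genes, among them Mobp (2.90), Mog (2.94) and Mbp (2.20). Single genes were called in other lists: Olig1 (3.40) of 5 oligodendrocyte precursor genes, Csf1r (2.98) of 9 microglial genes, Gjb2 (6.45) of 20 relatives of the members and Ttr (7.68) of 5 choroid plexus genes. So were Prkcd (3.98) and Rora (1.40) of 5 thalamic genes, and with the opposite sign Gad2 (-1.08) of 12 neuronal genes. After filterByExpr 2 of 31 and 1 of 8 were left in the first 2 lists, Csf1r, Ttr and Prkcd were called, Olig1, Rora and Gad2 were not, and Gjb2 was not tested. With the oligodendrocyte sum as a covariate, a fit chosen after seeing the data, 1 member was called in the interaction, Slc1a2 (log2 2.29, adjusted p = 0.000484), while Aldh1l1 (0.64, adjusted p = 0.806) and Gja1 (1.38, adjusted p = 0.376) were not. The part of the other markers in the members' interaction was not tested. After filterByExpr only Slc1a2 was called of the members (0.698% of genes), and the fit with litter as a block also called 1. DESeq2 called 2 members and limma 0, and in males alone all calls of members in the interaction were lost. Gfap had an interaction of 3.18 ± 1.00 (adjusted p = 0.0537), so a difference between its 2 responses did not pass. Averaged over the exposures, Gfap rose with LPS (log2 3.62 ± 0.53, adjusted p = 1.55e-05), and Slc1a2, Slc1a3 and Aldh1l1 rose by log2 values of 0.71, 1.32 and 1.43 (4.43% of genes called). After filterByExpr (1.08% of genes called) and with the litter block, 1 member was called, Gfap. With litter as a block in MOR–LPS against MOR–SAL, 4 members were called (Gfap, Aldh1l1, Slc1a2 and Slc1a3).

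Among saline-challenged animals Slc1a2 was lower after morphine exposure (MOR–SAL against SAL–SAL, log2 -1.23 ± 0.27, adjusted p = 0.0105), and 1 of 7 members was called, as after filterByExpr, with 1.44% and 0.983% of genes called. The call was lost without litter 10 (log2 -1.08, adjusted p = 0.0645), in males alone (adjusted p = 0.524), in limma (adjusted p = 0.342 on log2(CPM + 1)) and in voom (adjusted p = 0.134). Some markers of other cells and of neighbouring tissue fell in the same contrast: 2 of 5 choroid plexus genes (Ttr -6.02 and Folr1 -4.70) and 2 of 5 thalamic genes (Prkcd -4.17 and Rora -1.27). Single genes fell in the lists of 8 oligodendrocyte genes (Mobp -2.20), 32 other astrocyte genes (Ndrg2 -1.28) and 20 relatives of the members (the connexin gene Gjb2, -4.11). Folr1 and Gjb2 were not tested after filterByExpr, and the others were called there too. The summed thalamic list ran from 131.2 to 3028 CPM in SAL–SAL (median 354.4) and from 150.9 to 918.5 in MOR–SAL (median 278.7), and the summed choroid plexus list from 1.85 to 292.3 (median 30.4) and from 2.02 to 21.9 (median 12). Their part in the difference of Slc1a2 was not tested. Aldh1l1 (-1.85 ± 0.66) and Gfap (-1.56 ± 0.74) had adjusted p of 0.109 and 0.251. After LPS, MOR–LPS against SAL–LPS had all 7 log2 values above 0 (1.09 to 1.70) and 1 call, Slc1a2 (1.27 ± 0.28, adjusted p = 0.0346), with 1.03% of genes called. It was lost in 7 of 17 refits that left out 1 litter (litters 3, 4, 6, 8, 9, 14 and 16), where its adjusted p reached 0.0761. After filterByExpr 0 members were called (0.0317% of genes), with DESeq2 and limma 1 each and 6 members at an unadjusted p under 0.05. These contrasts share the MOR–SAL or MOR–LPS libraries with the LPS response after morphine and are not independent of it.

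**Figure D3:**
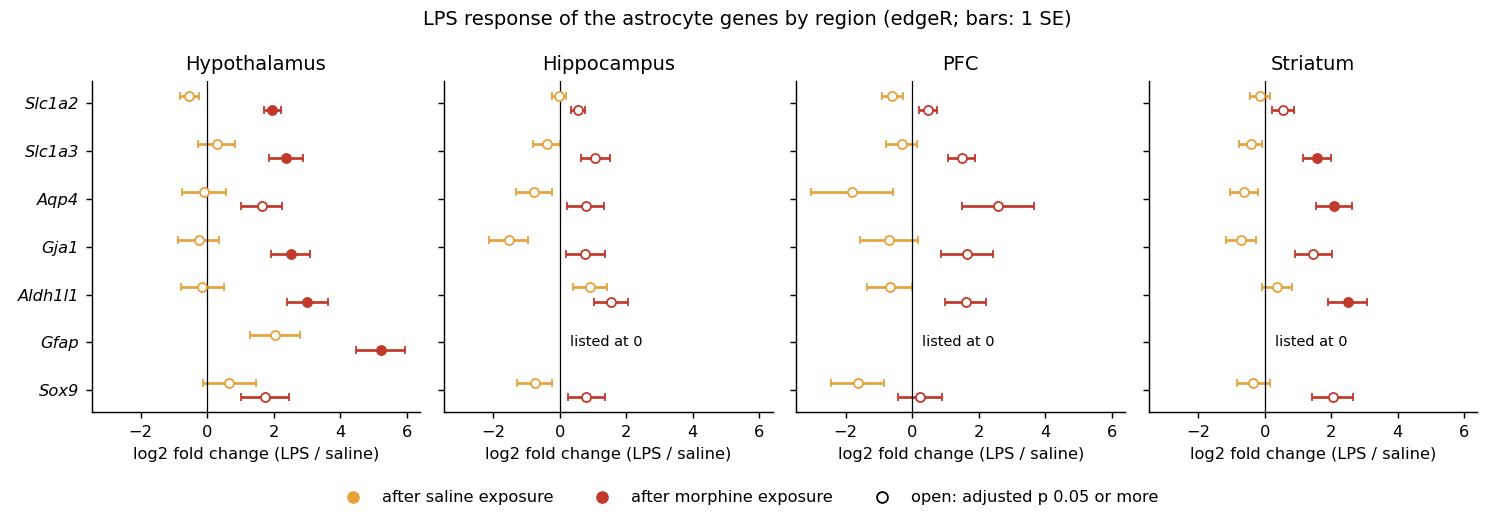
Log2 fold change of LPS against saline challenge for each member and region, after perinatal saline (orange) and after perinatal morphine (red). Bars are 1 SE, filled points have an adjusted p under 0.05 (5 genes in hypothalamus and 3 in striatum, all after morphine), and Gfap is listed at 0 outside hypothalamus.

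Markers of other glial cells moved with the members in hypothalamus. In MOR–LPS against MOR–SAL, 18 of 31 tested genes of a list of other astrocyte genes rose and 0 fell (17 after filterByExpr). Among them were Htra1 (log2 2.88 ± 0.54), Ntsr2 (3.02 ± 0.58) and Ndrg2 (1.27 ± 0.26). Of the relatives of the members, such as other glutamate transporters and SOX factors, 3 of 20 rose, which were Sox8 (2.27), Gjb2 (3.61) and Aqp9 (3.19), 1 of them after filterByExpr. Of 32 reactive astrocyte genes, 9 rose (5 of the 18 tested after filterByExpr), led by the secreted lipocalin Lcn2 (6.37 ± 1.00), the protease inhibitor Serpina3n (2.32 ± 0.41) and the LPS co-receptor Cd14 (6.55 ± 1.16), which was not tested after filterByExpr. Of 8 oligodendrocyte genes, 5 rose (3 after filterByExpr), among them the myelin genes Mobp (2.43), Mbp (1.74) and Mog (1.93), as did 3 of 5 oligodendrocyte precursor genes, 4 of 9 microglial genes with C1qb (3.34), Csf1r (1.82) and C1qa (3.04), 1 of 6 endothelial genes (Ly6c1, not tested after filterByExpr) and 1 of 7 ependymal and tanycyte genes (Crym, adjusted p = 0.0807 after filterByExpr). Of 12 neuronal genes, Slc17a7 rose (3.35) and Gad2 fell (-0.73), the latter not after filterByExpr, and none of 5 choroid plexus and 5 thalamic genes was called. Lcn2 (5.63) and Serpina3n (1.93) also rose in SAL–LPS against SAL–SAL, the latter not after filterByExpr (adjusted p = 0.0931), where 0 genes of the other astrocyte list were called by edgeR. Ttr of choroid plexus (-5.88, adjusted p = 0.00906) and the thalamic gene Rora (-1.50, adjusted p = 0.0118) fell in that contrast, also after filterByExpr (adjusted p = 0.0118 for each), and the summed choroid plexus list had a highest value of 292.3 CPM in SAL–SAL against 18.8 in SAL–LPS. The part of these markers in the contrast was not tested.

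The summed microglial list had medians of 36.9 CPM in MOR–SAL and 48.8 in MOR–LPS, with highest values of 53.8 and 243.4, and its part in the members' values was not tested. The summed oligodendrocyte list ran from 72.4 to 642.8 CPM in MOR–SAL and from 227.1 to 6267 in MOR–LPS. With the log2 of that sum as a covariate, a fit chosen after seeing the data, 3 members were called: Gfap (log2 4.25, adjusted p = 0.000122), Slc1a2 (1.78, adjusted p = 6.88e-05) and Slc1a3 (1.23, adjusted p = 0.0385), while Aldh1l1 (1.52, adjusted p = 0.0736) and Gja1 (1.299, adjusted p = 0.164) were not. The MOR–LPS libraries were also divided by that sum, again after seeing the data. Oligodendrocyte genes correlated with the members' mean over libraries (median r 0.712 here and 0.505 to 0.782 over the regions). A division by their sum therefore also tends to sort the libraries by the members, in every region. The cause of the pattern was not tested. In 7 of the 14 MOR–LPS libraries the oligodendrocyte sum was no higher than the highest of MOR–SAL. In these 7, Aldh1l1 ran from 0 to 5.34 CPM, with 0 of 7 above the highest of MOR–SAL, and Slc1a2 from 86.3 to 486.7, with 3 of 7 above. There, Slc1a3 was above the highest of MOR–SAL in 4 of 7, Gja1 in 3, Aqp4 in 2 and Sox9 in 2. In the 7 other MOR–LPS libraries, Aldh1l1, Slc1a2, Slc1a3, Gja1 and Aqp4 were each above the highest MOR–SAL value in all 7, and Sox9 in 6. For Gfap, where all 14 libraries exceeded MOR–SAL, the division can show no such contrast, and its level ran from 4.34 to 14.2 CPM in the former 7 and from 12.8 to 47.7 in the latter. The SAL–SAL libraries 4-1 and 9-4 had oligodendrocyte sums of 6902 and 5084 CPM and Aldh1l1 at 43.7 and 41.4, with Gfap at 0 and 8.39.

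**Figure D4:**
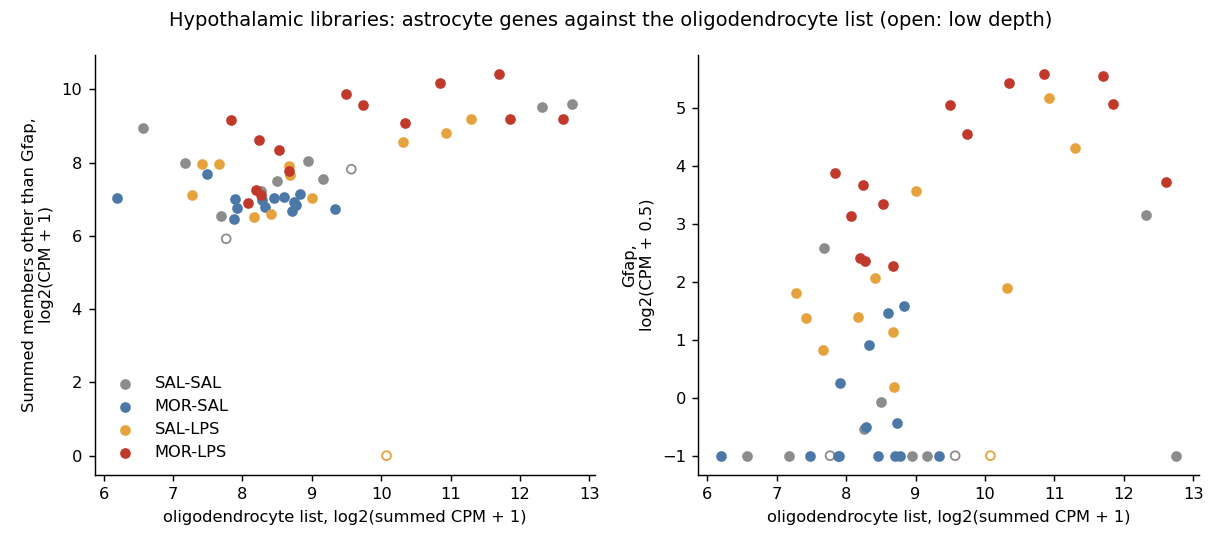
Hypothalamic libraries by the summed oligodendrocyte list (x axis, log2(CPM + 1)), against the sum of the members other than Gfap (left, log2(CPM + 1)) and Gfap (right, log2(CPM + 0.5)), coloured by condition, with libraries of low depth open. Gfap ran from 4.34 to 14.2 CPM in the 7 MOR–LPS libraries within the oligodendrocyte range of MOR–SAL and from 12.8 to 47.7 in the 7 above it.

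In striatum 3 of the 6 members with counts rose in MOR–LPS against MOR–SAL, where 1.39% of 23426 genes were called. These were Aldh1l1 (5.63-fold, log2 2.49 ± 0.58, adjusted p = 0.0243), Aqp4 (4.26-fold, 2.09 ± 0.55, adjusted p = 0.0404) and Slc1a3 (2.99-fold, 1.58 ± 0.42, adjusted p = 0.0433). All 3 were called after filterByExpr (1.72% of genes), DESeq2 called 4 and limma 4, and 0 were called with litter as a block (adjusted p = 0.253, 0.131 and 0.359) or with the oligodendrocyte sum as a covariate (adjusted p = 0.2, 0.0649 and 0.145). Without litter 14, which includes the library with the highest Aldh1l1, the log2 value of Aldh1l1 was 1.525 (adjusted p = 0.105), and without litter 15 it was 2.597 (adjusted p = 0.106). Without litter 14 or litter 15, 0 members were called, and without litters 1, 7, 12, 16 or 18, 1 was called. Leaving out 1 litter at a time ended the call of Aldh1l1 in 2, of Aqp4 in 9 and of Slc1a3 in 8 of 18 refits. The median log2 value was 1.82 over the members and 0.108 over all genes.

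Aldh1l1 in striatum ran from 2.23 to 8.33 CPM (median 5.2) in the 8 MOR–SAL libraries and from 3.8 to 215 (median 9.3) in the 18 of MOR–LPS. The value of 215 CPM came from 1 library, 14-4, and the next was 51.7. Slc1a3 ran from 8.03 to 25.9 CPM (median 14.9) and from 9.3 to 127.4 (median 27.1), and Aqp4 from 0 to 5.93 (median 1.06) and from 0.734 to 25.8 (median 4.2). Sox9 was at 0 in 3 MOR–SAL libraries and reached 0.712 CPM, and 14 of the 18 MOR–LPS libraries were above that, with a median of 1.46. The log2 values of Sox9 (2.05 ± 0.61, adjusted p = 0.0688), Gja1 (1.47 ± 0.55, adjusted p = 0.149) and Slc1a2 (0.55 ± 0.34, adjusted p = 0.399) were not called. In 6 MOR–LPS libraries the oligodendrocyte sum was above the highest of MOR–SAL (1222 CPM), and in all 6 Aldh1l1, Aqp4, Gja1, Slc1a3 and Sox9 exceeded the highest of MOR–SAL. In the other 12, Aldh1l1 did in 4, Aqp4 in 2, Slc1a3 in 3 and Sox9 in 8.

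Beside the members, 5 of 28 other astrocyte genes rose in that contrast (Gjb6 2.14, Fgfr3 2.02 and Slc6a11 1.99 among them), with 7 of 29 reactive astrocyte genes (Serpina3n 4.72, Lcn2 5.93 and Osmr 5.00), 1 of 19 relatives (the filament gene Synm, 1.66) and the microglial gene C1qa (4.84), while 0 of 8 oligodendrocyte genes were called by edgeR. In SAL–LPS against SAL–SAL 0 of 6 members were called (0.0128% of genes), with 0 at an unadjusted p under 0.05 and 0 in DESeq2. The interaction was called for 0 members (0.00854% of genes) and for 2 by DESeq2, with 5 of 6 at an unadjusted p under 0.05 and adjusted p from 0.0588 (Aqp4) to 0.466 (Slc1a2). MOR–SAL against SAL–SAL had 0 calls among 6 members, 1 at an unadjusted p under 0.05 and 0 in DESeq2 (0.0% of genes called). MOR–LPS against SAL–LPS had 0 calls with 5 at an unadjusted p under 0.05 and 3 in DESeq2 (0.0% of genes called). Averaged over the exposures Aldh1l1 was called (1.44 ± 0.36, adjusted p = 0.0277, with 1.65% of genes called, and 1 call with 1.03% of genes after filterByExpr), and was not with the litter block.

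In hippocampus no member was called in either LPS response by edgeR (2.55% of 22076 genes in SAL–LPS against SAL–SAL and 0.467% in MOR–LPS against MOR–SAL), with 1 and 3 of 6 at an unadjusted p under 0.05 and 0 in DESeq2. Slc1a2 had medians of 314.2, 301.4, 301.4 and 440.1 CPM in the 4 conditions, and its log2 values were -0.02 ± 0.21 after saline and 0.54 ± 0.21 after morphine. Slc1a3 had medians between 29.5 and 31.9 CPM in the 4 conditions, though its highest MOR–LPS library reached 300.3. In the 2 MOR–LPS libraries whose oligodendrocyte sum exceeded the highest of MOR–SAL (983.8 CPM), Slc1a3 was at 265.3 and 300.3 CPM and all 6 members were above the highest of MOR–SAL. High values also occurred in the other 14 MOR–LPS libraries, where Slc1a2 exceeded the highest of MOR–SAL in 5, Aldh1l1 in 4, Sox9 in 3, Slc1a3 in 2, Aqp4 in 1 and Gja1 in 0. Gja1 had its lowest median in SAL–LPS (1.29 CPM) and medians of 3.82 to 4.35 elsewhere, and its log2 value of 1.92 ± 0.59 in MOR–LPS against SAL–LPS had an adjusted p of 0.0563. That contrast had 0 members called and 2.73% of genes, with 3 members at an unadjusted p under 0.05 and 1 call in DESeq2. MOR–SAL against SAL–SAL had 0 of 6 by either tool and 0 at an unadjusted p under 0.05 (0.0% of genes), and the interaction 0 with 4 at an unadjusted p under 0.05 and 0 in DESeq2 (2.35% of genes). Averaged over the exposures Aldh1l1 was called (1.23 ± 0.36, adjusted p = 0.0391, with 3.82% of genes called), and it was not after filterByExpr (adjusted p = 0.104, with 0.343% of genes called) or with the litter block.

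In PFC edgeR and DESeq2 called no member in any of the 6 contrasts. MOR–LPS against MOR–SAL had all 6 log2 values above 0, from 0.23 (Sox9) to 2.58 (Aqp4), and 4 at an unadjusted p under 0.05, with the smallest adjusted p for Slc1a3 (1.49 ± 0.41, adjusted p = 0.0797, with 0.0184% of 21729 genes called). SAL–LPS against SAL–SAL had all 6 below 0, from -1.80 (Aqp4) to -0.32 (Slc1a3), with 1 at an unadjusted p under 0.05 and 0.0% of genes called. Without litter 9, whose SAL–SAL library 9-4 had 22.19 CPM of Aqp4, 30.22 of Gja1 and 151.3 of Slc1a3, the log2 value of Aqp4 was -0.68, and those of Gja1 (0.10) and Slc1a3 (0.43) were above 0. The interaction had 5 of 6 at an unadjusted p under 0.05 and adjusted p of 0.127 or more (1.78% of genes called). MOR–SAL against SAL–SAL had 1 (0.0% of genes called), MOR–LPS against SAL–LPS 2 (0.0046% of genes called) and the averaged response 0 (1.77% of genes called) at an unadjusted p under 0.05. Slc1a3 medians were 16.3, 16.9, 17.3 and 27.7 CPM in the 4 conditions, and 7 of 16 MOR–LPS libraries were above the highest of MOR–SAL (34.1). All 7 were among the 8 MOR–LPS libraries whose oligodendrocyte sum exceeded the highest of MOR–SAL (399.6 CPM), and 0 of the other 8 were. In those other 8, Aldh1l1 exceeded the highest of MOR–SAL in 2 and Gja1 in 1, at 22.8 CPM the highest Gja1 value of the 16. Aqp4 was the scarcest member in PFC, at 0 in 17 of 48 libraries with a median of 0.646 CPM, and reached 29 CPM.

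**Figure D5:**
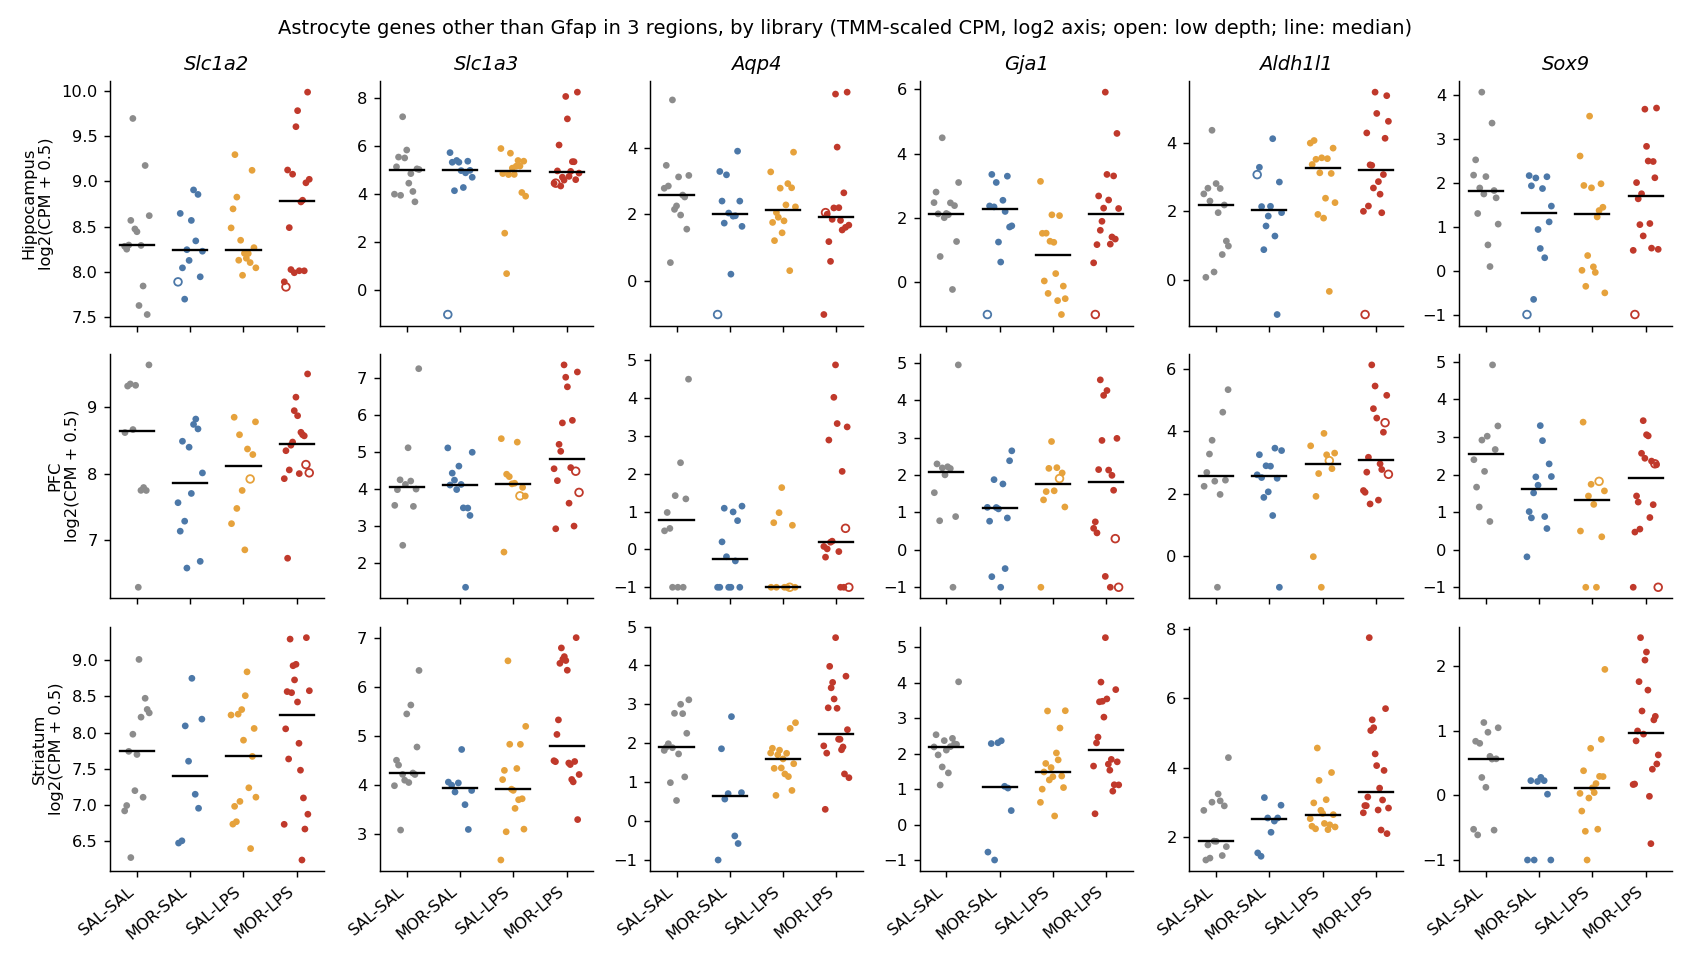
Level of the 6 members other than Gfap in hippocampus (top row), PFC (middle row) and striatum (bottom row), as log2(CPM + 0.5) after TMM scaling, by condition. Each point is 1 library, open points are libraries of low depth and lines are medians. In striatum 14 of 18 MOR–LPS points of Sox9 lie above the highest MOR–SAL point (0.712 CPM), and in hippocampus and PFC the conditions overlap for all 6.

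Among hippocampus, PFC and striatum, Sox9 was the only member called in SAL–SAL libraries by edgeR. Its median was 3.04, 5.31 and 0.979 CPM in the 3 regions. Sox9 was higher in PFC than in striatum (log2 3.00 ± 0.66, adjusted p = 0.00161, with 12.1% of 18432 genes called), and higher in hippocampus than in striatum (2.09 ± 0.62, adjusted p = 0.023, with 8.31% of genes called). With the animal as a block, the first had an adjusted p of 0.018 and the second of 0.1. The PFC group included library 5-1 at 29.78 CPM of Sox9 (next 9.31), and no fit without it was run. Between hippocampus and PFC 0 of 6 members were called by edgeR and by DESeq2, with 1 at an unadjusted p under 0.05 (12.2% of genes called). Against hypothalamus, whose table counted genes differently, Slc1a2 was lower in hypothalamus than in hippocampus (log2 -0.94, adjusted p = 0.0241) and than in PFC (-1.23, adjusted p = 0.00431), and Sox9 was lower than in PFC (-1.96, adjusted p = 0.0195). With the animal as a block Slc1a2 was not called between hypothalamus and hippocampus (adjusted p = 0.0865) and Slc1a3 was (log2 -1.59, adjusted p = 0.00992). Without libraries of low depth the call of Slc1a2 against hippocampus was lost. Scaling by library size only ended all calls of members against hippocampus and PFC. Hypothalamus against hippocampus had 1 call (37.5% of genes called), against PFC 2 (38.8%) and against striatum 0 by edgeR and DESeq2 with 0 at an unadjusted p under 0.05 (35.9%).

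The members varied together from library to library. After the means of condition and sex were removed from log2(CPM + 1), Pearson's r between 2 members had a median of 0.649 over the 21 pairs in hypothalamus (0.326 to 0.85, 51 libraries), 0.561 over 15 pairs in hippocampus, 0.266 in PFC and 0.455 in striatum. Of 66 correlations in all, permutation p adjusted over the 66 was under 0.05 for 21 of 21 pairs in hypothalamus, 14 of 15 in hippocampus, 7 of 15 in PFC and 13 of 15 in striatum, and by Spearman's rho for 20, 11, 5 and 13. The smallest p was 1e-05, the smallest that the permutations can give. Leaving out the 2 libraries farthest from the median left 20, 13, 4 and 12. Aldh1l1 and Gja1, for example, had r of 0.716 (rho 0.676) in hypothalamus, 0.448 (rho 0.274) in hippocampus, 0.435 (rho 0.447) in striatum and -0.0315 (rho -0.0057, permutation p = 0.831) in PFC. Without libraries of low depth 20, 14, 7 and 13 pairs were under 0.05 in hypothalamus, hippocampus, PFC and striatum, and the hypothalamic median r was 0.632. The pairs share libraries, and the part of other cell types in these correlations was not tested.

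The genes whose residuals were most like the members' mean, among genes of at least 5 CPM on average, are given as a description. In hypothalamus they were Apoe (r = 0.905), Gjb6 (0.891), Sdc4 (0.877), Fgfr3 (0.876) and C4b (0.871), and 12 of the first 50 were in the list of other astrocyte genes, which held 28 of the 13103 genes compared. In hippocampus they were Gpr37l1 (0.846), Ppap2b (0.824), Mlc1 (0.788), Dock1 (0.77) and Hif3a (0.767), with 8 of 50 in that list. In striatum Ppap2b (0.889), Mertk (0.887), Slc38a3 (0.881), Sdc4 (0.871) and Tspan15 (0.868) came first, with 5 of 50, and in PFC Qk (0.787), Phlpp1 (0.75), Cdh19 (0.737), the myelin gene Mbp (0.736) and St18 (0.719), with 2 of 50. The median r was 0.692 for the other astrocyte genes, 0.712 for oligodendrocyte genes, 0.0693 for neuronal genes and 0.298 for all genes in hypothalamus. In the same order it was 0.54, 0.505, 0.0584 and 0.0924 in hippocampus, 0.329, 0.545, -0.054 and 0.0143 in PFC, and 0.64, 0.782, -0.0794 and -0.00588 in striatum. The oligodendrocyte value was thus the higher of the first 2 in hypothalamus, PFC and striatum. Over summed CPM, where the most abundant genes weigh most and conditions were not removed, Spearman's rho between the members and the other astrocyte list was 0.731 in hypothalamus, -0.0466 in hippocampus, -0.0417 in PFC and 0.0507 in striatum. In the same order it was 0.461, 0.223, 0.278 and 0.442 for the oligodendrocyte list, 0.592, 0.165, 0.401 and 0.519 for the microglial list, and -0.19, 0.275, 0.101 and -0.418 for the neuronal list.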

How the data were processed

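Nuclear RNA of NeuN-sorted nuclei from 4 brain regions was sequenced as modified Smart-seq3 libraries. The authors trimmed reads with Trim Galore 0.6.7, aligned them to mm10 with STAR 2.7.10a and deposited raw counts per gene from STAR's gene counting against a GENCODE annotation, checked with HTSeq 0.12.4, and the use of strand is not given in the sources used here. The authors also deposited CPM values, which could be recomputed from the counts after the mitochondrial genes were dropped. Their own test used DESeq2 1.40.2 with sex and condition.

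Here genes with a total count above 10 in a region were scaled by TMM and tested with edgeR 4.0.16 (quasi-likelihood, condition and sex, all conditions of a region in 1 fit), with Benjamini–Hochberg adjustment over all genes tested and a threshold of 0.05. Regions were compared in 1 fit over SAL–SAL libraries. Alternatives used edgeR's filterByExpr, DESeq2 1.42.0, limma 3.58.1 on log2(CPM + 1) or log2(CPM + 0.1), other scalings, each sex alone, litter or animal as a block, and leaving out litters or libraries of low depth. R 4.3.3, Python 3.11.15, pandas 2.3.3, NumPy 2.4.6, SciPy 1.17.1 and matplotlib 3.10.9 were used. Tested on simulated data for hypothalamus (MOR–LPS against MOR–SAL, 28044 genes), edgeR recovered 92 of 100 genes changed 4-fold and 52 of 100 changed 2-fold, but 224 of its 368 calls were false, 212 of them in genes with a mean count of 5 or less. After filterByExpr 8 of 148 calls were false (18791 genes), so both counts are given. The members had mean counts of 15.4 or more in the regions where they were counted. Unchanged genes were simulated with the same mean in all conditions and a spread taken from the trend. Genes as uneven between libraries as the members were not simulated, so the simulated error rates need not hold for them.

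All 7 members are named throughout. From each other list, at most 3 called genes in each direction with the smallest adjusted p are named per comparison described in full, with the number called (a few named items are not reported here), and the 5 genes most like the members' mean are named per region. The members and lists were chosen with earlier results of these data known. Litter was taken as the first number of the animal label. The paper, which counts litters by condition, gives a higher number in all. The correlation within litters estimated by limma (duplicateCorrelation) was -0.049, -0.003, 0.004 and 0.029 in hypothalamus, hippocampus, PFC and striatum. Labels do not say that libraries were prepared separately beyond 1 per animal and region, and 0 libraries held identical values. Columns of samples not used numbered 0.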

Additional observations from a re-analysis of the deposited data

Results flagged for a closer look

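Of 21 groups of values tested for a sample far from the others, 6 were flagged. The test used Dixon's 95% critical value, which chance passes in about 1 in 20 for normally distributed values, and CPM are skewed. It was run only for groups of up to 10 libraries, which were SAL–SAL and SAL–LPS in PFC and MOR–SAL in striatum. No group of hypothalamus or hippocampus, nor any other group of PFC or striatum, was tested. In PFC the SAL–SAL library 9-4 stood above the others of its group for Aqp4 (22.19 CPM, next 4.41), Gja1 (30.22, next 4.41) and Slc1a3 (151.3, next 34.2). Sox9 was at 29.78 CPM in the PFC SAL–SAL library 5-1 (next 9.31) and at 10.03 in the PFC SAL–LPS library 1-4 (next 3.03). Slc1a3 was at 25.87 CPM in the striatal MOR–SAL library 17-2 (next 16.1).

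The response to LPS differed between the exposures in hypothalamus by the interaction term of edgeR for 3 members. The log2 difference, after morphine minus after saline, was 3.156 for Aldh1l1 (adjusted p = 0.0293), 2.755 for Gja1 (adjusted p = 0.0455) and 2.495 for Slc1a2 (adjusted p = 0.000469). Leaving out 1 litter at a time ended the call of Aldh1l1 in 5, of Gja1 in 10 and of Slc1a2 in 0 of 17 refits. The number of members called was 1 after filterByExpr, 1 with litter as a block, 1 with the oligodendrocyte covariate, 2 in DESeq2 and 0 in limma.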

How the results depend on the processing

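Numbers of members called are given here as the alternative's value, with the value of the fit described in the report in parentheses. Smaller changes are not all listed. No called member reversed its direction. With DESeq2, MOR–LPS against SAL–LPS had 1 (0) in hippocampus and 3 (0) in striatum, and the interaction 2 (0) in striatum. After filterByExpr, hypothalamus had 0 (1) in MOR–LPS against SAL–LPS, 1 (3) in the interaction and 1 (4) in the averaged response, and hippocampus 0 (1) in the averaged response. With litter as a replicate block, hypothalamus had 1 (3) in the interaction and 1 (4) in the averaged response, hippocampus 0 (1) in the averaged response, and striatum 0 (3) in MOR–LPS against MOR–SAL and 0 (1) in the averaged response, while the animal as a block gave 0 (1) between hippocampus and striatum. With voom and a correlation within litters, hypothalamus had 0 (1) in MOR–SAL against SAL–SAL, 1 (3) in the interaction and 1 (4) in the averaged response, hippocampus 1 (0) in MOR–LPS against SAL–LPS and 0 (1) in the averaged response, and striatum 1 (3) in MOR–LPS against MOR–SAL and 0 (1) in the averaged response. With limma on log2(CPM + 1), hypothalamus had 2 (5) in MOR–LPS against MOR–SAL, 0 (1) in MOR–SAL against SAL–SAL, 0 (3) in the interaction and 1 (4) in the averaged response, hippocampus and striatum 0 (1) each in the averaged response, hypothalamus against hippocampus 2 (1) and against PFC 1 (2). On log2(CPM + 0.1), hypothalamus had 1 (5), 0 (1), 0 (3) and 1 (4) in the same 4 comparisons and 0 (1) in MOR–LPS against SAL–LPS, hippocampus 0 (1) in the averaged response, and striatum 5 (3) in MOR–LPS against MOR–SAL and 0 (1) in the averaged response. In females alone, hypothalamus had 2 (1) in MOR–SAL against SAL–SAL, 0 (1) in MOR–LPS against SAL–LPS and 1 (4) in the averaged response, hippocampus 0 (1) in the averaged response, and striatum 1 (3) in MOR–LPS against MOR–SAL and 0 (1) in the averaged response. In males alone, hypothalamus had 3 (5) in MOR–LPS against MOR–SAL, 0 (1) in each exposure contrast, 0 (3) in the interaction and 1 (4) in the averaged response, hippocampus 0 (1) in the averaged response, and striatum 0 (3) and 0 (1) in MOR–LPS against MOR–SAL and the averaged response. Without the sex term, MOR–SAL against SAL–SAL had 2 (1) in hypothalamus, MOR–LPS against SAL–LPS 2 (0) in hippocampus and the interaction 1 (0) in striatum. With library size only, MOR–LPS against SAL–LPS had 1 (0) in hippocampus and 1 (0) in striatum, the interaction 2 (0) in striatum, and hypothalamus against hippocampus 0 (1) and against PFC 0 (2). This scaling moved the median of all genes by -0.17 to 0.258 on the log2 scale over the 24 comparisons within regions, and by 0.225, 0.403 and 0.263 for hypothalamus against hippocampus, PFC and striatum. Without libraries of low depth, the averaged response in hypothalamus had 2 (4), the interaction in hypothalamus 2 (3), MOR–LPS against SAL–LPS in hippocampus 1 (0) and hypothalamus against hippocampus 0 (1). Chosen after seeing the data, the oligodendrocyte covariate gave 3 (5) in MOR–LPS against MOR–SAL and 1 (3) in the interaction in hypothalamus, 0 (1) in the averaged response in hippocampus, and 0 (3) and 0 (1) in MOR–LPS against MOR–SAL and the averaged response in striatum, and a fit of hippocampus, PFC and striatum alone gave 2 (1) between PFC and striatum. The causes of these changes were not tested.

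Leaving out 1 litter at a time, hypothalamus had 5 in every refit of MOR–LPS against MOR–SAL, 0 to 1 in each exposure contrast, and 1 to 4 in the interaction and in the averaged response. In the averaged response Aldh1l1 was lost in 11, Slc1a3 in 7 and Slc1a2 in 2 of 17 refits. Hippocampus had 0 to 1 in MOR–LPS against SAL–LPS, in the interaction and in the averaged response, where Aldh1l1 was lost in 11 of 18. Striatum had 0 to 4 in MOR–LPS against MOR–SAL, 0 to 3 in MOR–LPS against SAL–LPS, 0 to 2 in the interaction and 0 to 1 in the averaged response, and PFC 0 in all. Libraries with few reads limit the members of low level: at 7673 counts all were at 0.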

Other observations

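Animals with libraries of several regions allowed the members to be set side by side between regions. The value was the mean of log2(CPM + 1) over the 6 members other than Gfap after the means of condition and sex were removed, and Pearson's r is given as a description. It was 0.781 between PFC and striatum (35 animals, rho 0.755), 0.6 between hypothalamus and striatum (37 animals, rho 0.615) and 0.437 between hypothalamus and PFC (35 animals, rho 0.425). It was 0.385 between hippocampus and PFC (36 animals, rho 0.194), 0.387 between hippocampus and striatum (42 animals, rho 0.198) and 0.0175 between hypothalamus and hippocampus (38 animals, rho -0.0152).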
